A study of Mus musculus with 11 samples.

Results

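The collagen genes were followed in bulk RNA sequencing of 11 mouse mammary tumors, 6 PyMT *Pcbp1*–/– and 5 PyMT *Pcbp1*+/+. Members were the genes annotated as protein-coding whose symbol has the collagen pattern (Col, a type number, a and a chain number), which gave 43 of the 26283 genes in the deposited tables, 16314 of which are protein-coding. They comprised 11 fibrillar collagens, the 6 chains of type IV collagen of basement membranes and 26 other collagens. The tumors came from 18-week-old C57BL/6 females that all carried MMTV-PyMT, a viral oncogene under a mammary promoter, and MMTV-Cre, with *Pcbp1*(fl/fl) alleles in the knockout group and *Pcbp1*(wt/wt) alleles in the control group. MMTV-Cre is meant to delete *Pcbp1* in the mammary epithelium alone, and *Pcbp1* was not measured by cell type here. Tumors are named below by genotype and replicate number, as knockout 1 to 6 and wild-type 1 to 5.

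Collagens are secreted proteins whose chains wind into triple helices, and each gene encodes a single chain. Fibrillar collagens build the tensile fibers of the stroma and are made mainly by fibroblasts, type IV collagen forms the sheet under epithelium and around vessels, and the remaining types decorate fibrils, anchor basement membranes, form beaded filaments or span the cell membrane. In mammary tumors collagen deposited by stromal cells is a large part of the matrix that surrounds the cancer cells. PCBP1 is a poly(C)-binding protein, a family known for binding a cytosine-rich stretch in the untranslated end of the α1(I) collagen mRNA and stabilizing that mRNA in activated stellate cells of the liver.

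The values are CPM, which scale the estimated count of a gene by the summed counts of its tumor, over totals of 10543200 to 14092200 counts per tumor. *Pcbp1* itself (ENSMUSG00000051695.6, chr6:86524492-86526321, minus strand; all coordinates are GRCm38) lay at 15.4, 20.9 and 33.6 CPM (lowest, median and highest) in the knockout tumors and at 268, 271, 225, 219.5 and 259 CPM in wild-type 1 to 5. The groups did not overlap, and the log2 fold change of knockout over wild-type was -3.43 (95% interval -3.84 to -3.02, edgeR adjusted p = 4.72e-06). The transcript that remained in the knockout tumors was not assigned to a cell type.

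Collagen mRNA as a whole took 0.164% to 0.317% of the counts in knockout tumors and 0.139% to 0.231% in wild-type tumors. Protein-coding genes held 51.7% to 61.4% of the counts of a tumor. Of the protein-coding counts alone, collagens took 0.296% to 0.560% in knockout and 0.257% to 0.391% in wild-type tumors. Knockout 1 was the highest of the 11 tumors at 3168 CPM, and wild-type 5 the lowest at 1386 CPM. Summed fibrillar collagen was 897 ± 293 CPM over the 6 knockout tumors and 644 ± 135 CPM over the 5 wild-type tumors (mean ± SD). Summed type IV collagen was 496 ± 171 CPM over the 6 knockout tumors and 454 ± 161 CPM over the 5 wild-type tumors. The other collagens summed to 942 ± 256 CPM over the 6 knockout tumors and 815 ± 124 CPM over the 5 wild-type tumors. In every class the groups overlapped. The ratio of the means was 1.39 for fibrillar, 1.09 for type IV and 1.16 for other collagens. With a tumor left out or protein-coding counts as the denominator, the type IV ratio ran from 0.960 to 1.26, on both sides of 1. Much of the fibrillar figure came from *Col11a1* in knockout 2, and without *Col11a1* the fibrillar ratio was 1.24. In bulk tumor RNA, fewer cells of a type and less RNA per cell cannot be told apart.

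**Figure D1:**
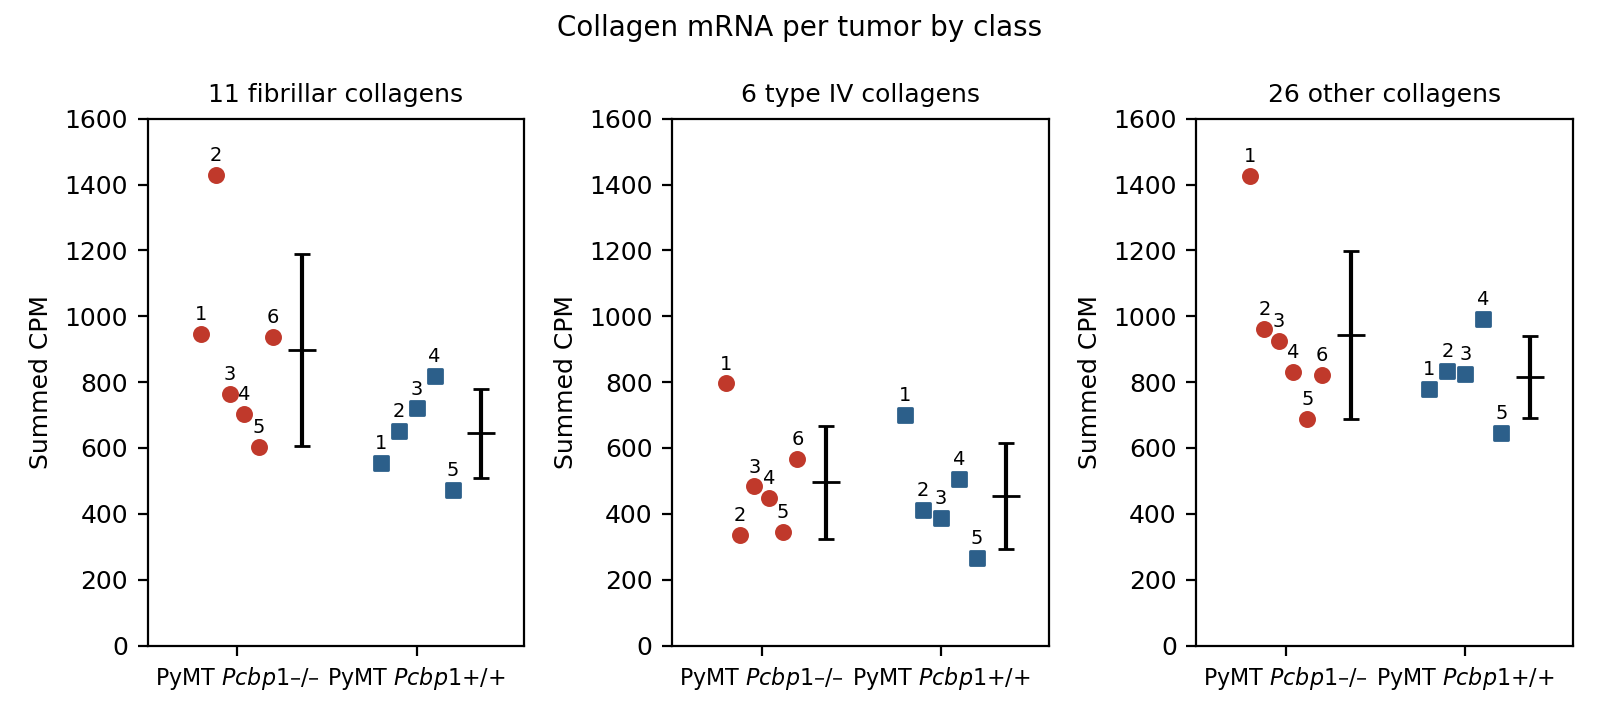
Summed CPM of the fibrillar, type IV and other collagens in each tumor (vertical axes from 0), with knockout tumors as circles, wild-type tumors as squares, the replicate number beside each point and the mean with SD as a bar. The groups overlap in all classes, and knockout 2 (fibrillar, 1430.1 CPM) and knockout 1 (other, 1427 CPM) stand above the rest.

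The comparison asks whether deleting *Pcbp1* in the epithelium goes with a difference in any collagen mRNA of the tumor. Of the 43 members, 37 passed edgeR's filter on low counts and 6 did not (*Col6a5*, *Col13a1*, *Col19a1*, *Col20a1*, *Col24a1* and *Col26a1*). At an adjusted p under 0.05, edgeR called 0 of the 37 lower in knockout tumors, where 1.66% of all 19232 genes tested were called lower, and 0 higher, where 0.608% of all genes were. At an unadjusted p under 0.05, edgeR found 0 collagens lower (10.5% of all genes) and 7 higher (8.19% of all genes). DESeq2 gave an adjusted p for 41 collagens and called 2 higher (2.12% of all genes by DESeq2) and 0 lower (3.09%). At an unadjusted p under 0.05, given for all 43, DESeq2 found 8 higher (7.66% of all genes) and 1 lower (8.18%). Limma-voom with sample weights called 1 of 37 higher (5.03% of all genes by that test) and 0 lower (6.19%), with 7 higher (15%) and 3 lower (15.3%) at an unadjusted p under 0.05. In none of the 37 were the groups free of overlap in CPM, a separation that 3.29% of all genes tested showed.

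The signs nevertheless leaned to the positive side. Of the 37 collagens, 28 had a positive log2 fold change (75.7%), against 49.98% of all genes tested, and their median was 0.25 against -0.00012 for all genes. By class, 8 of 10 fibrillar collagens were positive with a median of 0.35, 16 of 21 other collagens with a median of 0.25, and 4 of 6 type IV chains with a median of 0.083. The type IV median lay below 0 in 5 of 21 alternatives, with sample weights in limma-voom (-0.014), with the replicate number as a block (-0.033) and without knockout 1, knockout 6 or wild-type 5 (down to -0.084), so that no direction is given for it. Over the alternatives, which tested 36 to 43 collagens, the positive ones were fewest at 21 of 36 without knockout 1. They were 22 of 38 without wild-type 5 and 22 of 37 in limma-voom with sample weights, and most at 31 of 37 without knockout 5 or wild-type 4. The 37 genes were measured in the same tumors, so that these counts are not 37 independent readings.

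**Figure D2:**
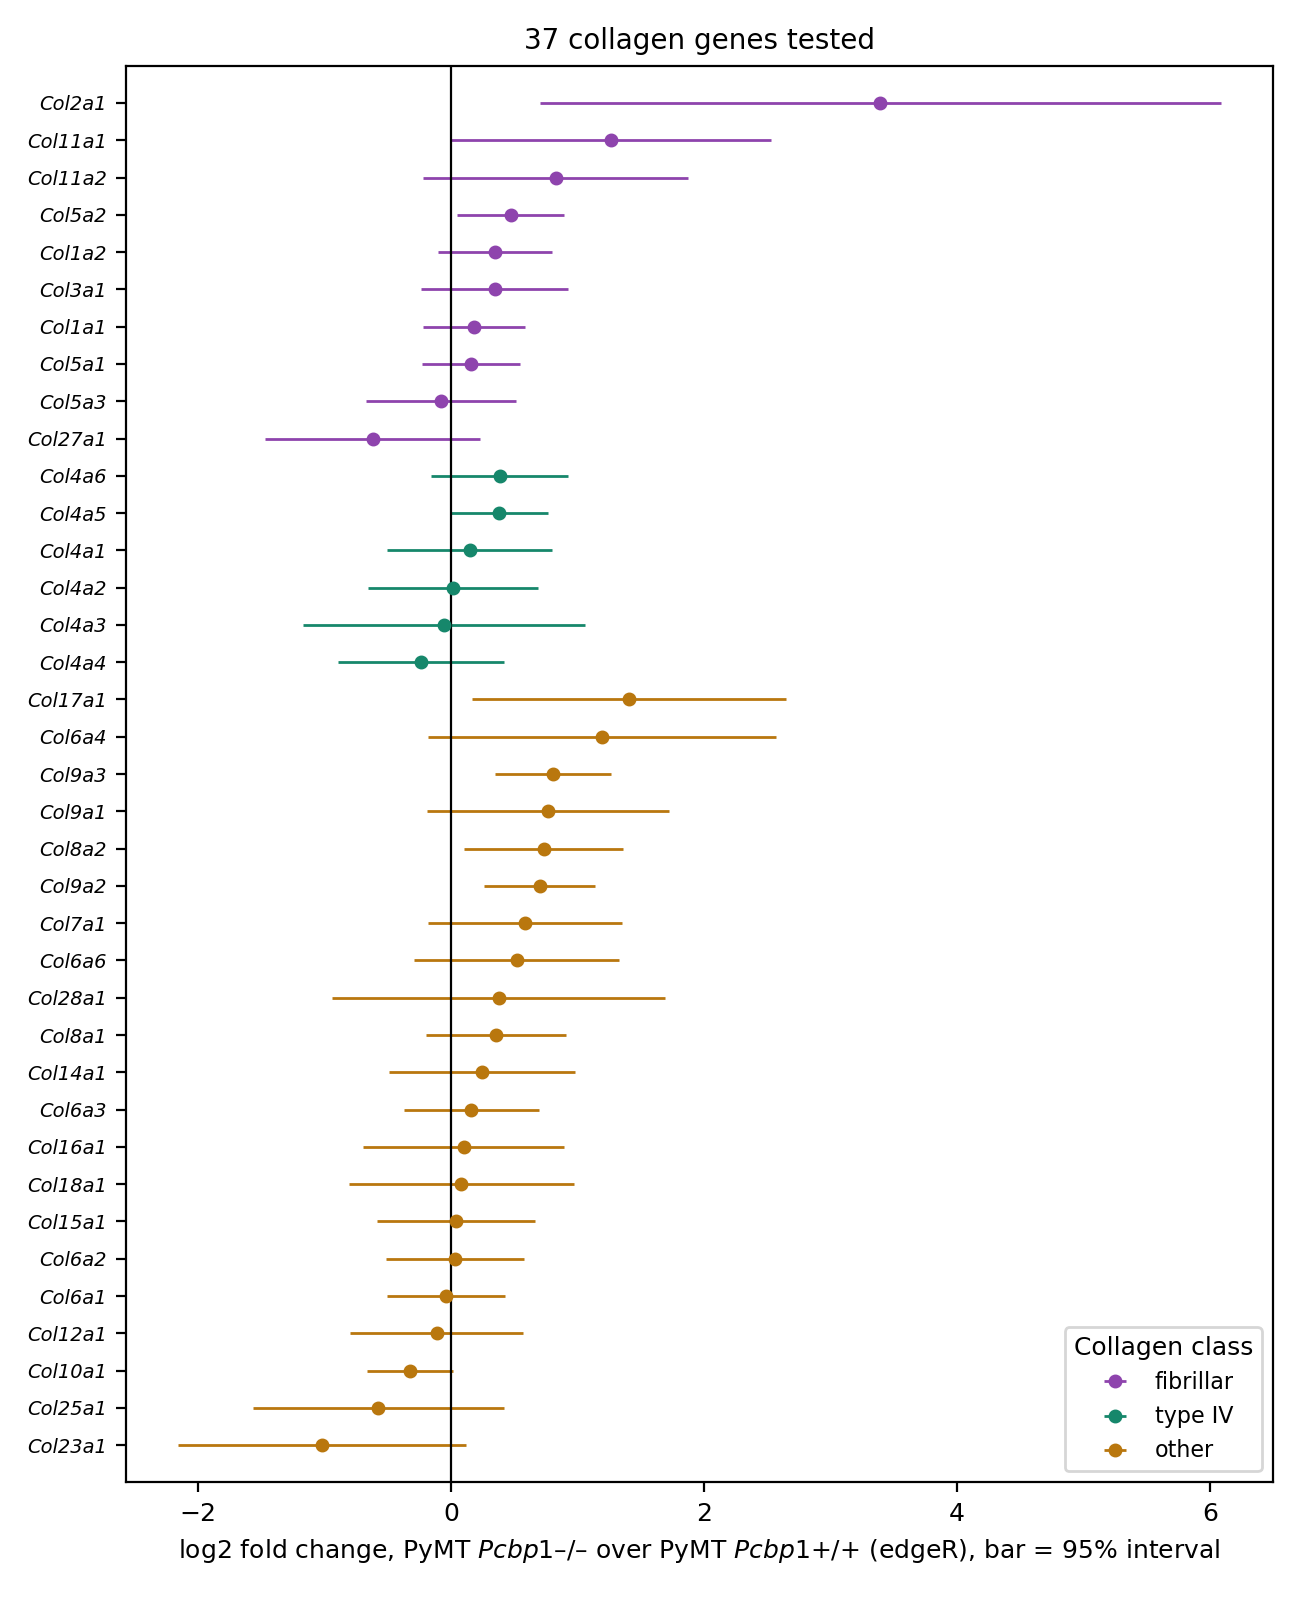
Log2 fold change of knockout over wild-type tumors (horizontal axis, edgeR, point) with its 95% interval (bar) for the 37 collagen genes tested, colored and grouped as fibrillar, type IV and other. Of the 37 points 28 lie to the right of 0, and the intervals of 7 genes lie above 0 before adjustment for the number of genes tested.

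Type I collagen, the main fiber of connective tissue, is built from the products of *Col1a1* and *Col1a2*. *Col1a1* (ENSMUSG00000001506.10, chr11:94936224-94953042, plus strand) lay at 129, 194 and 235 CPM in the knockout tumors and at 107, 208, 171, 206 and 140.5 CPM in wild-type 1 to 5. The ranges lay almost on top of each other, with the lowest tumor in the wild-type group and the highest in the knockout group. Its log2 fold change was 0.18 (95% interval -0.22 to 0.58, edgeR adjusted p = 0.635). *Col1a2* (ENSMUSG00000029661.16, chr6:4504814-4541544, plus strand) lay at 105, 183 and 236 CPM and at 103, 144, 160.2, 189.5 and 102 CPM, with a log2 fold change of 0.35 (95% interval -0.10 to 0.80, edgeR adjusted p = 0.388). *Col3a1* (ENSMUSG00000026043.18, chr1:45311538-45349706, plus strand), whose chain forms type III collagen of pliable tissue, lay at 101, 173 and 299 CPM and at 119, 102, 203, 177 and 102 CPM. Its log2 fold change was 0.35 (95% interval -0.24 to 0.93, edgeR adjusted p = 0.521). For these abundant genes the intervals leave room for a rise of up to 0.93 and for a fall of down to -0.24 on the log2 scale.

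Type V collagen nucleates type I fibrils, and its chains are encoded by *Col5a1*, *Col5a2* and *Col5a3*. *Col5a2* (ENSMUSG00000026042.16, chr1:45374321-45503282, minus strand) lay at 40.1, 58.6 and 82.4 CPM in the knockout tumors and at 48.5, 39.0, 43.9, 58.7 and 27.6 CPM in the wild-type tumors. Knockout 1 was the highest and wild-type 5 the lowest, and the groups overlapped. Its log2 fold change was 0.47 (95% interval 0.052 to 0.89, unadjusted p = 0.0307, edgeR adjusted p = 0.216). *Col5a1* was at 30.5 to 65.3 CPM and 34.4 to 51.6 CPM, with a log2 fold change of 0.16 (95% interval -0.23 to 0.55, edgeR adjusted p = 0.672), and *Col5a3* at 3.90 to 9.31 CPM and 3.39 to 9.29 CPM. *Col27a1*, a fibrillar chain of cartilage, was at 4.20 to 14.8 CPM and 5.79 to 27.2 CPM, with a log2 fold change of -0.62 (95% interval -1.47 to 0.23, edgeR adjusted p = 0.424).

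The fibrillar collagens best known from cartilage, *Col11a1* and *Col2a1*, each had a single knockout tumor far above all others. *Col11a1* (ENSMUSG00000027966.20, chr3:114030540-114220718, plus strand), chosen after its values were seen, encodes a chain of type XI collagen, which is also a known product of fibroblasts in carcinomas. Its level was 67.4, 87.3 and 682 CPM in the knockout tumors and 97.4, 88.0, 63.5, 109.6 and 52.4 CPM in wild-type 1 to 5. Knockout 2 held the highest value, knockout 1 followed at 191 CPM, and the other knockout tumors lay within the wild-type range. The log2 fold change was 1.27 (95% interval 0.0044 to 2.53, unadjusted p = 0.0493, edgeR adjusted p = 0.266), and it was 0.32 without knockout 2 and 0.29 in limma-voom with sample weights. *Col2a1* (ENSMUSG00000022483.17, chr15:97975602-98004695, minus strand), the main collagen of cartilage, lay at 0.387, 7.71 and 87.6 CPM and at 0.183, 5.88, 1.66, 0.638 and 1.34 CPM. Knockout 5 was the highest, knockout 1 to 3 also lay above all wild-type tumors, and knockout 4 and 6 lay under 1 CPM within the wild-type range. Its log2 fold change was 3.39 (95% interval 0.70 to 6.08, unadjusted p = 0.0175, edgeR adjusted p = 0.168), and 1.77 without knockout 5 and 4.37 without wild-type 2. The lowest tumor held 2 counts of *Col2a1*, a level at which counting error is large.

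The summed markers of cartilage, of which 2 of 6 were tested and 0 called by edgeR, DESeq2 or limma-voom (0 at an unadjusted p under 0.05 in edgeR), were 56.7 CPM in knockout 2, 26.2 CPM in knockout 5 and at most 17.7 CPM in the other tumors. *Acan*, the main cartilage proteoglycan and chosen after its values were seen, reached 25.8 CPM in knockout 2 and lay at no more than 1.90 CPM in every other tumor. *Cnmd*, a cartilage glycoprotein, reached 18.4 CPM in knockout 2 and at most 6.40 CPM elsewhere. *Chad*, a matrix protein of cartilage and the highest of the list in CPM, was at 3.94 to 21.4 CPM and 3.11 to 15.3 CPM, with its highest value in knockout 5. Of the 6 markers, 2 had their highest value in knockout 2, 2 in knockout 1 and 2 in knockout 5. The part of cartilage-like cells in the *Col11a1* and *Col2a1* values was not tested.

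Type IV collagen of most basement membranes is made from *Col4a1* and *Col4a2*, which lie head to head on chromosome 8. *Col4a1* (ENSMUSG00000031502.11, chr8:11198423-11312826, minus strand) lay at 120.1, 192 and 357 CPM in the knockout tumors and at 306, 192, 169, 213 and 91.1 CPM in wild-type 1 to 5. *Col4a2* (ENSMUSG00000031503.13, chr8:11312805-11449287, plus strand) lay at 93.5, 145 and 295 CPM and at 265, 164, 134, 181 and 77.5 CPM. Knockout 1 and wild-type 1 held the highest values of both genes and wild-type 5 the lowest, so that tumors differed within each genotype far more than the genotypes did. The log2 fold change was 0.15 (95% interval -0.50 to 0.80, edgeR adjusted p = 0.830) for *Col4a1* and 0.018 (95% interval -0.66 to 0.69, edgeR adjusted p = 0.983) for *Col4a2*. Without knockout 1 these values turned to -0.055 and -0.22, and the sign of *Col4a2* turned in 9 of 21 alternative settings.

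*Col4a5* and *Col4a6*, a second head-to-head pair on the X chromosome whose chains assemble in the basement membranes of some epithelia and smooth muscle, were chosen after their values were seen. *Col4a5* lay at 54.0, 75.7 and 87.4 CPM and at 71.8, 33.5, 54.6, 58.4 and 55.0 CPM, with a log2 fold change of 0.38 (95% interval -0.0028 to 0.76, edgeR adjusted p = 0.271). *Col4a6* lay at 24.7, 46.2 and 50.2 CPM and at 46.8, 17.9, 21.3, 34.7 and 35.5 CPM, with a log2 fold change of 0.39 (95% interval -0.15 to 0.93, edgeR adjusted p = 0.431). Both overlapped between the groups, and both kept a positive value in 21 of 21 alternative settings. *Col4a3* and *Col4a4*, the chains of the kidney filter, were low at 0.664 to 6.60 CPM and 3.38 to 11.5 CPM over the 11 tumors.

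**Figure D3:**
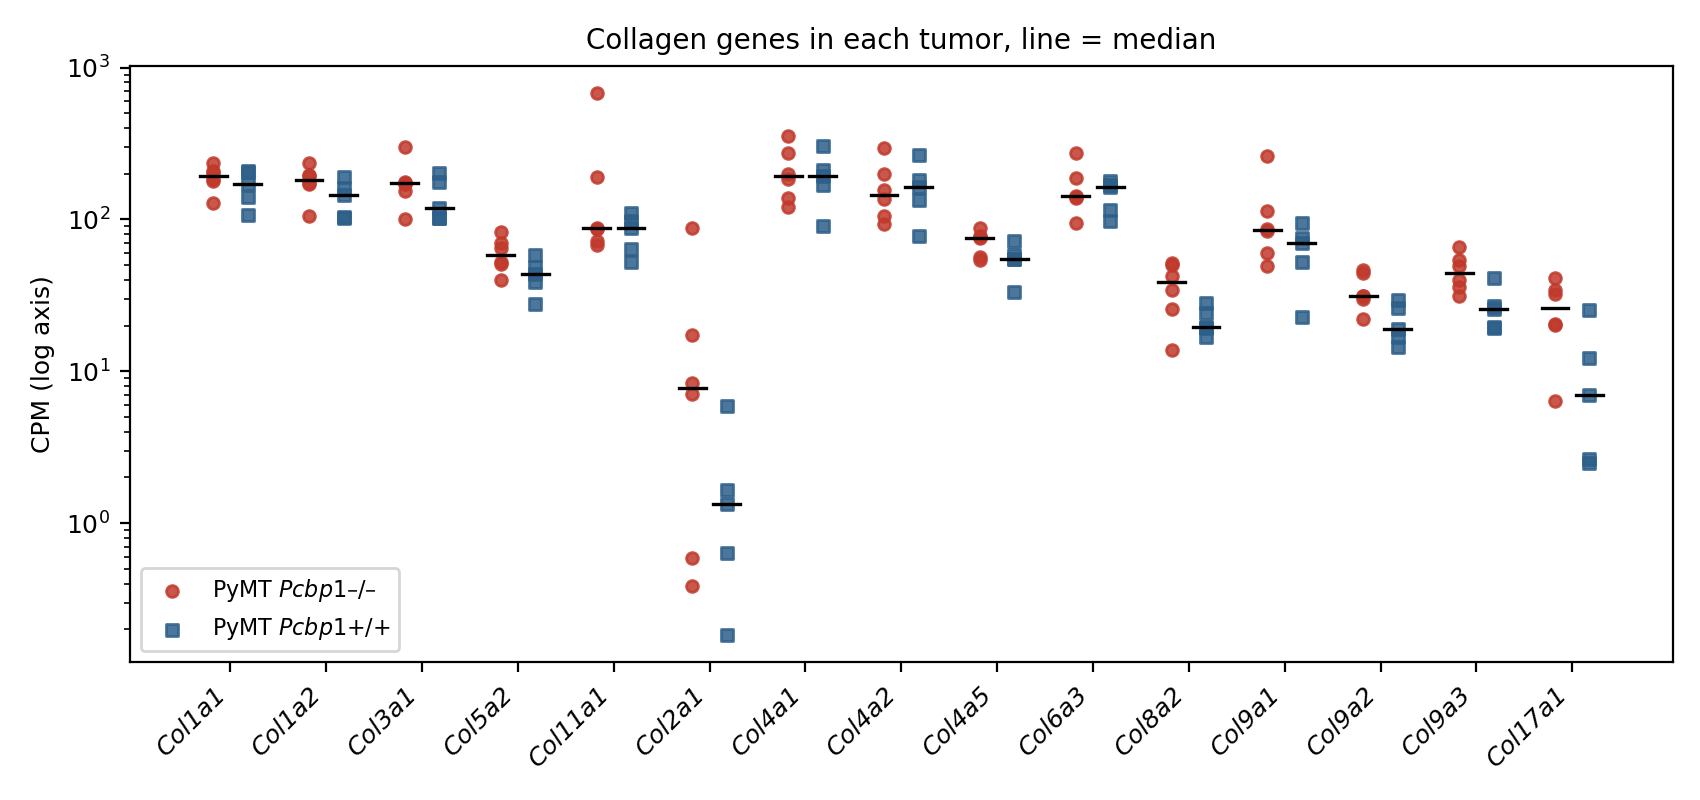
CPM (log axis) of 15 collagen genes in each tumor, with knockout tumors as circles, wild-type tumors as squares and the group median as a line. The groups overlap in every gene drawn, and single tumors stand out for *Col11a1* (682 CPM in knockout 2) and *Col2a1* (87.6 CPM in knockout 5).

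Ratios of chains within a tumor do not depend on how libraries are scaled. The ratio of *Col4a2* to *Col4a1* was 0.731 to 0.825 in knockout tumors and 0.866, 0.855, 0.794, 0.848 and 0.851 in wild-type 1 to 5. Wild-type 3 lay inside the knockout range and the other wild-type tumors above it. The mean log2 ratio differed by -0.14 (exact permutation p = 0.0108, two-sided, and 0.0649 after adjustment for 6 ratios), which missed the threshold after adjustment. Without knockout 1 the difference was -0.16 with an exact adjusted p of 0.0476, and over all alternatives the adjusted p ran from 0.0476 to 0.143. For *Col1a2*/*Col1a1* the ratio was 0.691 to 1.27 over the 11 tumors, and for *Col3a1*/*Col1a1* it was 0.490 to 1.61. The balance of basement membrane to fibrillar collagen, *Col4a1*/*Col1a1*, ran from 0.587 in knockout 2 to 2.85 in wild-type 1. These ratios, *Col5a2*/*Col5a1* and *Col6a2*/*Col6a1* gave adjusted p-values of 0.299 to 0.807 in the same exact permutation test.

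Across the 11 tumors some chains moved in step and others did not (8 pairs, log2(CPM + 1), two-sided permutation tests with Benjamini-Hochberg adjustment over the pairs). *Col4a1* and *Col4a2* gave Pearson's r = 0.99 (permutation p = 1e-05, adjusted p = 8e-05) and Spearman's rho = 0.99 (permutation p = 1e-05, adjusted p = 8e-05), where 1e-05 is the smallest p that 100000 resamples can give. *Col6a1* and *Col6a2*, neighbors on chromosome 10, gave Pearson's r = 0.98 (permutation p = 2e-05, adjusted p = 8e-05) and Spearman's rho = 0.94 (permutation p = 7e-05, adjusted p = 0.000280). Without the 2 tumors farthest from the median of the first gene, r was 0.98 and 0.99, and within the knockout tumors it was 0.99 for both pairs. *Col1a1* and *Col1a2* gave Pearson's r = 0.83 (permutation p = 0.00283, adjusted p = 0.00566) and Spearman's rho = 0.65 (permutation p = 0.0368, adjusted p = 0.0981), with r = 0.66 without knockout 5 and wild-type 1. For *Col1a1* and *Col1a2* the rank correlation thus missed the threshold after adjustment.

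The pairs of *Col1a1* with *Col4a1* and with *Col3a1* did not pass the threshold. *Col1a1* and *Col4a1* gave Pearson's r = 0.12 (permutation p = 0.721, adjusted p = 0.721) and Spearman's rho = 0.12 (permutation p = 0.734, adjusted p = 0.734), and r was 0.46 without knockout 5 and wild-type 1. *Col1a1* and *Col3a1* gave Pearson's r = 0.47 (permutation p = 0.144, adjusted p = 0.192) and Spearman's rho = 0.28 (permutation p = 0.405, adjusted p = 0.463), and r was 0.20 without the same tumors. A p that misses the threshold does not show that the genes are unrelated.

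**Figure D4:**
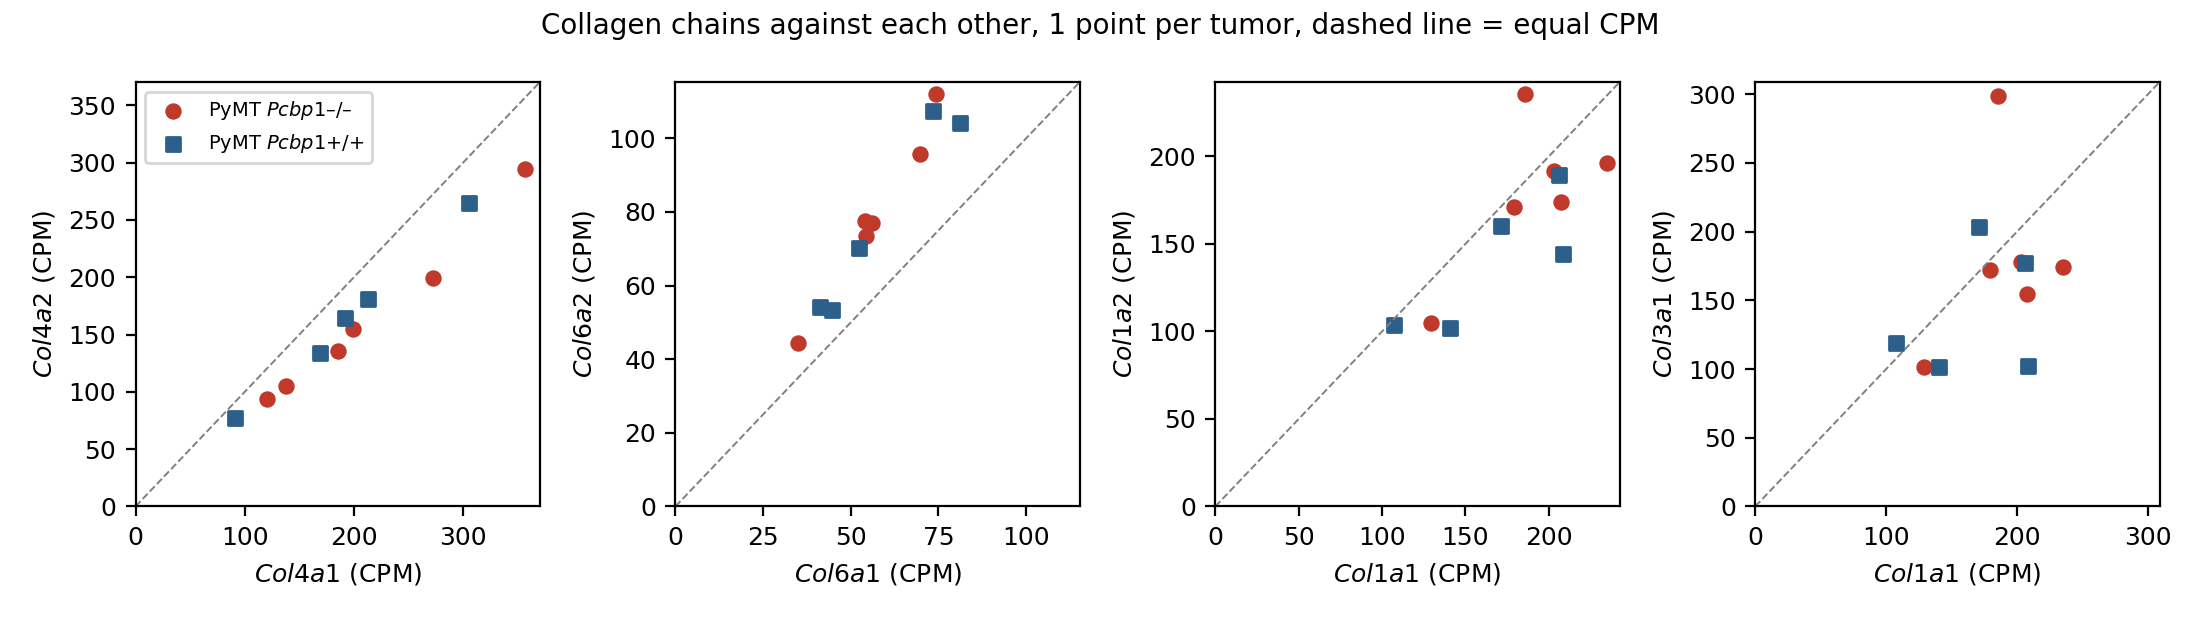
CPM of 2 collagen chains against each other in 4 pairs (axes from 0, 1 point per tumor), with knockout tumors as circles, wild-type tumors as squares and equal CPM as a dashed line. *Col4a1* with *Col4a2* and *Col6a1* with *Col6a2* lie close to a line through the origin, whereas *Col3a1* scatters against *Col1a1* (r = 0.47).

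Type VI collagen forms beaded filaments near the cell surface from the products of *Col6a1*, *Col6a2* and *Col6a3*. *Col6a3* (ENSMUSG00000048126.16, chr1:90765923-90843971, minus strand) lay at 94.9, 142 and 274 CPM in the knockout tumors and at 115, 179.7, 168, 163 and 98.1 CPM in wild-type 1 to 5. Knockout 1 was the highest, and the wild-type values all fell within the knockout range. The log2 fold changes were 0.16 (95% interval -0.37 to 0.70) for *Col6a3*, -0.039 (95% interval -0.51 to 0.43) for *Col6a1* and 0.030 (95% interval -0.52 to 0.58) for *Col6a2*, with edgeR adjusted p-values of 0.758, 0.944 and 0.963. Their signs turned in 1, 3 and 7 of 21 alternative settings, so that no direction is given for them. *Col6a1* was at 35.1 to 74.2 CPM and 41.3 to 81.2 CPM, and *Col6a2* at 44.4 to 112 CPM and 53.4 to 107 CPM.

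The smallest p-values among all collagens belonged to type IX collagen, which sits on the surface of fibrils and is best known from cartilage. *Col9a3* (ENSMUSG00000027570.15, chr2:180597790-180622189, plus strand) lay at 31.4, 44.4 and 65.3 CPM in the knockout tumors and at 41.4, 25.7, 19.2, 26.8 and 19.6 CPM in wild-type 1 to 5. Wild-type 1 reached into the knockout range, and the other 4 wild-type tumors lay below all knockout tumors. The means were 45.9 ± 12.7 CPM (SD, n = 6) against 26.5 ± 8.97 CPM (SD, n = 5), and the log2 fold change was 0.81 (95% interval 0.35 to 1.26, unadjusted p = 0.00220, edgeR adjusted p = 0.0673). The gene passed the threshold with DESeq2 (adjusted p = 0.0112), with limma-voom and sample weights (0.0259) and in edgeR without wild-type 1 (0.0361), within a range of 0.0112 to 0.154 over 21 alternatives. Its last 234 bases overlap *Tcfl5* on the other strand, which was at 0.709 CPM on average.

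*Col9a2* (ENSMUSG00000028626.5, chr4:121039385-121055322, plus strand), a partner chain of the same molecule, lay at 22.1, 31.1 and 46.7 CPM and at 29.3, 16.8, 19.1, 26.2 and 14.4 CPM. Wild-type 1 and wild-type 4 lay inside the knockout range and the other wild-type tumors below it. The log2 fold change was 0.70 (95% interval 0.26 to 1.14, unadjusted p = 0.00448, edgeR adjusted p = 0.0938), and DESeq2 gave an adjusted p of 0.0297 within a range of 0.0297 to 0.176. *Col9a1*, the remaining chain of type IX and chosen after its values were seen, lay at 49.1, 85.4 and 261 CPM and at 52.4, 22.7, 70.0, 75.0 and 95.1 CPM. Knockout 1 stood far above all other tumors, and the log2 fold change was 0.77 (95% interval -0.19 to 1.72, edgeR adjusted p = 0.374), and 0.31 without knockout 1. All 3 chains kept a positive value in 21 of 21 alternative settings.

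*Col12a1* (ENSMUSG00000032332.17, chr9:79598991-79718831, minus strand), a fibril-associated collagen of dense connective tissue, lay at 33.0, 119 and 131 CPM and at 77.8, 166, 69.0, 147 and 108 CPM. Knockout 6 held the lowest value of all tumors, and the log2 fold change was -0.11 (95% interval -0.80 to 0.57, edgeR adjusted p = 0.880), with the opposite sign in 4 of 21 alternatives (0.068 without knockout 6). *Col14a1* and *Col16a1* of the same class lay at 2.37 to 14.8 CPM and 9.86 to 43.8 CPM over the 11 tumors. Of the 6 fibril-associated collagens tested, 5 had a positive log2 fold change, with a median of 0.47.

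Among the network-forming short chains, *Col8a1* and *Col8a2* encode type VIII collagen, found under endothelium and in vessel walls. *Col8a2* (ENSMUSG00000056174.8, chr4:126286793-126314330, plus strand) lay at 13.8, 38.5 and 51.3 CPM in the knockout tumors and at 16.7, 28.4, 24.1, 19.6 and 19.4 CPM in wild-type 1 to 5. Knockout 6 lay below every wild-type tumor and knockout 1 to 4 above all of them. The log2 fold change was 0.73 (95% interval 0.10 to 1.36, unadjusted p = 0.0258, edgeR adjusted p = 0.199). *Col8a1* lay at 61.6 to 158 CPM and 63.7 to 117 CPM, with a log2 fold change of 0.36 (95% interval -0.20 to 0.91, edgeR adjusted p = 0.480), which turned to -0.015 in limma-voom with sample weights. *Col10a1*, a collagen of growth plate cartilage, was at 6.73 to 8.80 CPM and 6.92 to 13.3 CPM. Its log2 fold change was -0.32 (95% interval -0.67 to 0.021, edgeR adjusted p = 0.296). The whole span of *Col10a1* lies inside *Nt5dc1* on the other strand, so that reads of the 2 genes may be mixed.

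Collagens that anchor epithelium to its basement membrane include *Col17a1*, a transmembrane collagen of the hemidesmosome in basal cells, and *Col7a1* of the anchoring fibrils below it. *Col17a1* (ENSMUSG00000025064.14, chr19:47646344-47692094, minus strand) lay at 6.37, 26.3 and 40.9 CPM in the knockout tumors and at 25.3, 2.66, 7.01, 12.3 and 2.50 CPM in wild-type 1 to 5. In 5 of 6 knockout tumors it was above 20 CPM, as in wild-type 1 alone among the wild-type tumors. The log2 fold change was 1.41 (95% interval 0.17 to 2.65, unadjusted p = 0.0289, edgeR adjusted p = 0.210). With a tumor left out it ran from 1.17 without wild-type 2 to 2.06 without wild-type 1, and over 21 alternatives the adjusted p ran from 0.0536 to 0.335. *Col7a1* lay at 4.27 to 13.5 CPM and 2.14 to 10.3 CPM, with a log2 fold change of 0.58 (95% interval -0.18 to 1.35, edgeR adjusted p = 0.400). The summed basal epithelial markers, led by *Mylk*, lay at 192 to 686 CPM in knockout and 169 to 1284 CPM in wild-type tumors. Of the 10 markers, 0 were called by edgeR, DESeq2 or limma-voom with sample weights. At an unadjusted p under 0.05, edgeR found 1 lower, *Krt14* (10.5% of all genes), and 0 higher (8.19%). In this list 4 of 10 had a positive log2 fold change (49.98% of all genes tested), with a median of -0.087. *Krt14*, a basal keratin, was at 3.82 to 21.9 CPM and 4.64 to 277 CPM. Wild-type 2 held its highest value, and the next wild-type tumor was at 47.6 CPM. The part of basal cells in the *Col17a1* values was not tested.

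*Col25a1* (ENSMUSG00000058897.17, chr3:130131501-130599877, plus strand), a transmembrane collagen of neurons and muscle, was the highest transmembrane collagen per transcript length and lay at 6.65, 38.2 and 65.3 CPM and at 31.9, 89.0, 43.1, 57.2 and 50.5 CPM. Knockout 5 and knockout 6 lay below all wild-type tumors, and the log2 fold change was -0.57 (95% interval -1.57 to 0.42, edgeR adjusted p = 0.532). *Col23a1* of the same class was at 3.69 to 21.5 CPM and 4.27 to 29.9 CPM. Its log2 fold change of -1.02 (95% interval -2.15 to 0.12, edgeR adjusted p = 0.319) was the lowest of the 37 collagens tested. Of the 3 transmembrane collagens tested, 1 had a positive log2 fold change, with a median of -0.57. *Col18a1* (ENSMUSG00000001435.15, chr10:77052178-77166548, minus strand), the precursor of endostatin in vessel and epithelial basement membranes, lay at 20.2, 31.2 and 95.3 CPM and at 61.5, 50.6, 26.7, 36.1 and 13.9 CPM. Knockout 1 stood apart from the other knockout tumors, and the log2 fold change of 0.082 (95% interval -0.81 to 0.97, edgeR adjusted p = 0.936) turned to -0.39 without it. *Col18a1* overlaps *Slc19a1* on the other strand by 8825 bases. *Col15a1*, its closest relative, was at 19.2 to 47.2 CPM and 19.0 to 46.9 CPM.

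The remaining members were scarce. *Col28a1*, the only tested member of the mixed class, lay at 0.426 to 1.93 CPM and 0.0914 to 2.19 CPM, with a log2 fold change of 0.38 (95% interval -0.94 to 1.69, edgeR adjusted p = 0.774), 0.080 without wild-type 1 and 1.25 without wild-type 3. *Col11a2* was at 0.512 to 5.55 CPM, *Col6a6* at 3.57 to 22.0 CPM and *Col6a4* at 0.0893 to 2.90 CPM. The 6 members without a test stayed at or below 2.24 CPM in every tumor, where 3 counts correspond to 0.213 to 0.285 CPM.

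Per length of the canonical transcript, the level averaged over the 11 tumors was led by *Col4a1* (30.8 CPM per kb, tumors from 13.8 to 54.0), *Col1a1* (30.2), *Col1a2* (30.1) and *Col3a1* (29.1). The ranges of these 4 genes over tumors overlapped. Alignment and counting of reads can affect genes to different degrees, and their effect on the order between genes was not tested. *Col4a2* (24.3 CPM per kb), *Col9a1* (23.0), *Col11a1* (18.8), *Col8a1* (18.4), *Col25a1* (17.1) and *Col6a3* (17.0) followed. *Col11a1* owed its place to knockout 2, over a range of 6.79 to 88.4 CPM per kb, and in a mean without that tumor, taken after the data were seen, it was at 11.9 CPM per kb, below *Col6a1* (14.2), *Col6a2* (13.3) and *Col9a3* (12.9). *Col9a1* had tumors from 5.91 to 68.0 CPM per kb, the highest being knockout 1, while *Col2a1* averaged 2.28 CPM per kb over all tumors. Without knockout 1, a mean also taken after the data were seen, *Col9a1* was at 18.5 and *Col4a1* at 28.5 CPM per kb, the latter below *Col1a1* (29.9), *Col1a2* (29.5) and *Col3a1* (28.8).

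The enzymes that modify collagen chains in the endoplasmic reticulum were examined next. Over all genes, edgeR called 1.66% lower and 0.608% higher, and DESeq2 3.09% and 2.12%. Limma-voom with sample weights called 6.19% lower and 5.03% higher. At an unadjusted p under 0.05, edgeR found 10.5% lower and 8.19% higher. Of 15 genes for prolyl and lysyl modification, edgeR called 1 lower and 0 higher. *P3h4* (ENSMUSG00000006931.15, chr11:100408456-100414836, minus strand), a partner of the lysyl hydroxylation complex, lay at 4.10, 7.22 and 8.54 CPM in the knockout tumors and at 16.2, 26.6, 12.4, 17.7 and 11.0 CPM in wild-type 1 to 5. All knockout tumors lay below all wild-type tumors. It fell with a log2 fold change of -1.26 (95% interval -1.75 to -0.78, edgeR adjusted p = 0.0132), and the adjusted p was 0.0514 with the replicate number as a block. *P4hb*, a subunit of prolyl hydroxylase and the highest of the list in CPM, lay at 299.9 to 410.1 CPM and 313 to 415 CPM. Of 12 genes for folding and export, edgeR and DESeq2 called 0 in either direction (1 lower and 0 higher at an unadjusted p under 0.05 in edgeR) and limma-voom with sample weights 1 lower, *Fkbp14*. *Sparc*, a collagen chaperone of the matrix, was at 301 to 548 CPM and 205 to 696 CPM, and *Fkbp14*, a prolyl isomerase, at 9.81 to 19.8 CPM and 14.5 to 25.6 CPM.

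Of 12 tested genes that trim propeptides or cross-link fibrils, edgeR and DESeq2 called 0 in either direction. Limma-voom with sample weights called 2 higher (5.03% of all genes by that test). At an unadjusted p under 0.05, edgeR found 3 higher (8.19% of all genes) and 0 lower (10.5%). In this list 10 of 12 had a positive log2 fold change (49.98% of all genes tested), with a median of 0.32 (-0.00012 for all genes). *Lox*, the lysyl oxidase, was at 34.4 to 92.9 CPM and 31.6 to 59.4 CPM, and *Adamts3*, a procollagen N-proteinase, at 13.2 to 21.6 CPM and 5.98 to 16.6 CPM. Of 13 tested genes of collagen breakdown, edgeR, DESeq2 and limma-voom with sample weights each called 1 lower and 0 higher. Over all genes these tests called 1.66%, 3.09% and 6.19% lower. *Timp3* (ENSMUSG00000020044.13, chr10:86300372-86349506, plus strand), a matrix-bound inhibitor of metalloproteinases, lay at 140.3, 179 and 203 CPM and at 519, 479, 283, 478 and 137 CPM. Wild-type 5 was the lowest tumor of all, and the other wild-type tumors lay above every knockout tumor. *Timp3* fell with a log2 fold change of -1.08 (95% interval -1.62 to -0.54, edgeR adjusted p = 0.0453), a call that was lost in 15 of 21 alternatives (adjusted p up to 0.128). It lies within *Syn3* on the other strand. *Timp2*, an inhibitor of the same family and the highest of the list in CPM, was at 138 to 381 CPM and 174 to 367 CPM.

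Of 9 collagen receptors, edgeR called 0 in either direction, DESeq2 1 higher, *Ddr2* (2.12% of all genes), and limma-voom with sample weights 1 lower (6.19%). At an unadjusted p under 0.05, edgeR found 1 lower (10.5% of all genes) and 1 higher (8.19%). *Ddr2*, a receptor tyrosine kinase for fibrillar collagen, lay at 27.0, 44.0 and 71.4 CPM and at 28.7, 18.6, 25.1, 24.2 and 11.7 CPM. Only knockout 3 fell within the wild-type range, below wild-type 1, and the log2 fold change was 1.07 (95% interval 0.49 to 1.64, edgeR adjusted p = 0.0589, range over 21 alternatives 0.00453 to 0.169). *Itgb1*, the shared chain of collagen-binding integrins, was at 189.9 to 319 CPM and 158 to 250.2 CPM. Of 16 other basement membrane genes, edgeR called 1 lower (1.66% of all genes) and DESeq2 1 lower (3.09%), and both called 0 higher. Limma-voom with sample weights called 2 lower (6.19% of all genes) and 1 higher (5.03%). At an unadjusted p under 0.05, edgeR found 2 lower (10.5% of all genes) and 1 higher (8.19%). *Agrn* (ENSMUSG00000041936.18, chr4:156165290-156197488, minus strand), the heparan sulfate proteoglycan agrin, lay at 77.9, 113 and 202 CPM and at 301, 255, 193, 244 and 168 CPM. Knockout 1 reached into the wild-type range and the other knockout tumors lay below it. *Agrn* fell with a log2 fold change of -0.97 (95% interval -1.43 to -0.50, edgeR adjusted p = 0.0399), a call that was lost in 9 of 21 alternatives (adjusted p up to 0.0918). *Pxdn*, the peroxidase that cross-links type IV collagen, was at 202 to 379 CPM and 183 to 334 CPM. Of 8 tested proteoglycans that bind fibrils, 0 were called by edgeR and DESeq2 (1 lower and 0 higher at an unadjusted p under 0.05 in edgeR) and 1 lower, *Prelp*, by limma-voom with sample weights, with *Bgn* the highest in CPM at 124 to 246 CPM and 149 to 259.5 CPM and *Prelp* at 14.3 to 34.3 CPM and 18.2 to 84.8 CPM.

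Cell type markers were set beside the collagens. Fibroblast markers, led by *Lum*, summed to 98.5 to 366 CPM in knockout and 93.9 to 237 CPM in wild-type tumors. Knockout 6 held the highest sum, and the next knockout tumor was at 164 CPM. *Lum* was at 112 CPM in knockout 6 and at most 40.1 CPM in the other knockout tumors. Of the 9 markers, 8 had a positive log2 fold change (49.98% of all genes tested), with a median of 0.44 (-0.00012 for all genes). EdgeR, DESeq2 and limma-voom with sample weights called 0. At an unadjusted p under 0.05, edgeR found 0 lower (10.5% of all genes) and 1 higher (8.19%). The latter was *Fbln1*, a matrix protein, at 3.30 to 7.03 CPM and 1.96 to 3.94 CPM. *Pdgfra*, a fibroblast receptor, and *Col1a1* gave Pearson's r = 0.83 (permutation p = 0.00193, adjusted p = 0.00515) and Spearman's rho = 0.55 (permutation p = 0.0819, adjusted p = 0.131), with r = 0.59 without knockout 5 and wild-type 1, so that the relation rests in part on these tumors. *Col1a1* and *Epcam*, an epithelial marker, gave Pearson's r = -0.55 (permutation p = 0.0808, adjusted p = 0.129) and Spearman's rho = -0.58 (permutation p = 0.0648, adjusted p = 0.130), with r = -0.59 without them. *Col4a1* and the endothelial *Pecam1* gave Pearson's r = 0.35 (permutation p = 0.286, adjusted p = 0.327) and Spearman's rho = 0.44 (permutation p = 0.182, adjusted p = 0.243), with r = -0.04 without knockout 1 and wild-type 5. Knockout 1, with the most collagen mRNA, had the lowest sum of luminal markers of all tumors (1311 CPM), and knockout 5, with the least among the knockout tumors, the highest (2507 CPM). In wild-type 1 to 5 the luminal sums were 2214, 1544, 1727, 2161 and 2066 CPM. Their collagen sums were 2034, 1899, 1932, 2314 and 1386 CPM and did not run in the inverse order. The relation of these sums was not tested.

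Endothelial markers, led by *Cdh5*, summed to 57.6 to 107 CPM in knockout and 62.3 to 105 CPM in wild-type tumors. Of their log2 fold changes 9 of 10 were negative, with a median of -0.22. Over all genes tested 49.98% were positive, with a median of -0.00012. Adipocyte markers, led by *Pnpla2*, summed to 56.9 to 81.4 CPM in knockout and 51.5 to 148 CPM in wild-type tumors, with 8 of 8 negative. Wild-type 3 held the highest sum, and the next wild-type tumor was at 78.4 CPM. The adipocyte marker *Fabp4* was at 19.5 CPM in wild-type 3 and at most 3.39 CPM in the other wild-type tumors. In the knockout tumors it lay at 0.639 to 10.3 CPM, with its highest value in knockout 1. The signs were not counted without wild-type 3. Macrophage markers, led by *Lyz2*, summed to 281 to 524 CPM in knockout and 166 to 376 CPM in wild-type tumors, with 7 of 8 positive (49.98% of all genes tested). *Lyz2*, lysozyme of myeloid cells, lay at 141, 194 and 241 CPM and at 123, 49.1, 150.4, 81.5 and 68.6 CPM, overlapping in a single wild-type tumor, with a log2 fold change of 1.02 (95% interval 0.45 to 1.60, edgeR adjusted p = 0.0657, range over 21 alternatives 0.00652 to 0.151). Pericyte and smooth muscle markers, led by *Notch3*, summed to 278 to 359 CPM in knockout and 218 to 499 CPM in wild-type tumors, and luminal markers, led by *Cdh1*, to 1311 to 2507 CPM in knockout and 1544 to 2214 CPM in wild-type tumors. Skeletal muscle markers, led by *Acta1*, lay at 1.16 to 22.5 CPM in knockout and 0.474 to 28.8 CPM in wild-type tumors, and 1 of the 7 was tested. EdgeR called 0 of the tested genes in these lists. At an unadjusted p under 0.05 it found 0 lower (10.5% of all genes) and 1 higher (8.19%), *Lyz2*. DESeq2 and limma-voom with sample weights called *Lyz2* alone, as higher. The part of these cell types in the collagen values was not tested.

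The start regions of the pairs that moved in step were read from RefSeq promoters (GRCm38.p6, 250 bases before to 50 after a start), which matched 35 of the 43 collagens by symbol (not *Col1a1*, *Col2a1*, *Col4a3*, *Col5a2*, *Col9a3*, *Col12a1*, *Col14a1* and *Col26a1*). On either strand, GGGCGG was found in 22 of 35 (62.9%, against 38.2% of 27025 genes), CCAAT in 13 of 35 (37.1%, against 41.1% of 27025 genes), TATAAA in 5 of 35 (14.3%, against 15.7% of 27025 genes) and ACAAAG in 5 of 35 (14.3%, against 21.0% of 27025 genes). Such a match is a description of letters and not a site, and no background matched for gene type or base composition was used. *Col4a1* and *Col4a2* overlap by the 22 bases at their starts, and *Col6a1* and *Col6a2* each have a start of their own. The stretch shared by *Col4a1* and *Col4a2* (chr8:11312805-11312826, plus strand), 126 bases before the annotated *Col6a1* gene (chr10:76726169-76726294, minus strand) and 250 bases before the *Col6a2* gene (chr10:76623631-76623880, minus strand) are printed 5′ to 3′ with GGGCGG or its reverse complement in capitals.
Col4a1 and Col4a2: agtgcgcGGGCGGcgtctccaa
Col6a1: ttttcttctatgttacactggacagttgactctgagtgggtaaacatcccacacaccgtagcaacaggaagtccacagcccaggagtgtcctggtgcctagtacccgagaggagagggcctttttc
Col6a2: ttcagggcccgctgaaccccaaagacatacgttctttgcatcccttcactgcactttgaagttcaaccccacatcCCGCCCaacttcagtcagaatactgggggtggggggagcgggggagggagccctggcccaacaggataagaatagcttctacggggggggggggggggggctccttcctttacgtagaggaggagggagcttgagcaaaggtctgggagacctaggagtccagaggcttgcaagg
The printed part of *Col6a1* held none of the 4 motifs, the *Col6a2* part held GGGCGG on the other strand, and the stretch shared by *Col4a1* and *Col4a2* held GGGCGG.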

How the data were processed

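RNA was extracted with Trizol from flash-frozen tumors, and stranded poly(A) libraries, a single batch per the labels, were sequenced as paired ends on a NovaSeq instrument. The authors checked reads with FastQC, aligned them to GRCm38 with Bowtie2 and used Partek for their own tests, and they deposited estimated counts per gene. How reads were counted, on which strand and with which annotation version is not stated, so that overlapping genes are uncertain. The authors also deposited CPM, the estimated counts scaled by their sum per tumor. The lowest total of a gene in the table is 10. Between 17.9% and 19.7% of the estimated counts were not whole, and all were rounded.

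Genotype was tested across all genes with edgeR 4.0.16 (R 4.3.3; TMM factors, default filter, quasi-likelihood test, Benjamini-Hochberg adjustment over 19232 genes). Ratios of chains were compared with exact permutation tests (smallest possible p 0.00216) and correlations with 100000 permutations. Members and lists were chosen with earlier results of these data known. The collagens named by rule were *Col1a1*, *Col3a1*, *Col4a1*, the highest of each class in mean CPM, the 6 with the smallest p and the chains of the ratios and pairs. Of each partner and marker list, the called genes, or otherwise the gene with the smallest p and the gene highest in CPM, were eligible by the same rule, and 1 marker list is not reported here. All other collagens named were chosen after their values were seen. *Col21a1*, *Col22a1*, *Kera*, *Gp6*, *Mmp1a*, *Mmp1b*, *Tcf21*, *Matn1* and *Snorc* were not among the genes used here. Alternatives were DESeq2 1.42.0, limma 3.58.1 (limma-voom with sample weights, and limma on log2(CPM + 1) or log2(CPM + 0.1)), library size only, upper-quartile factors, protein-coding genes only, no filter or at least 1 CPM in 5 tumors, the replicate number as a block and each tumor left out in turn. The fibrillar sum without *Col11a1*, sums without each tumor and the level per length without knockout 2 or knockout 1 were added after the data were seen. Transcript lengths came from the canonical transcripts of GENCODE M39, another build, matched by Ensembl identifier for all 43 members.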

Additional observations from a re-analysis of the deposited data

Results flagged for a closer look

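In a search of 80 groups of tumors (genes, class sums and chain ratios, each genotype apart), 12 values lay far from the rest of their group by Dixon's criterion, each a single tumor. For independent groups of normally distributed values the criterion flags about 1 in 20, here 4. The groups searched share genes and tumors, and some genes were chosen after their values were seen. The number found can therefore not be judged against that figure. Knockout 1 was high for *Col18a1* (95.3 CPM, next 32.3), *Col9a1* (261 CPM, next 114), *Agrn* (202 CPM, next 119) and the sum of the other collagens (1427 CPM, next 961). Knockout 2 was high for *Col11a1* (682 CPM, next 191). For *Col2a1*, knockout 5 (87.6 CPM, next 17.4) and wild-type 2 (5.88 CPM, next 1.66) were high. Knockout 6 was low for *Col12a1* (33.0 CPM, next 102) and high for the ratios *Col1a2*/*Col1a1* (1.27, next 0.953) and *Col3a1*/*Col1a1* (1.61, next 0.959). Wild-type 1 was high for *Col4a1*/*Col1a1* (2.85, next 1.03), and wild-type 3 low for *Col4a2*/*Col4a1* (0.794, next 0.848). These values were kept in the comparisons, and what sets them apart was not tested.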

How the results depend on the processing

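The count of collagens called lower was 0 in edgeR and in 21 of 21 alternatives, at an unadjusted p under 0.05 with 0 in edgeR, 1 in DESeq2 and 3 in limma-voom with sample weights. The count called higher was 0 in edgeR, 2 in DESeq2, 1 in limma-voom with sample weights, and 0 to 1 with a tumor left out. Over all genes, DESeq2 called 700 lower and 480 higher, limma-voom with sample weights 1190 and 968, the fit with the replicate block 118 and 42, and fits without a tumor 144 to 389 and 41 to 187. Medians of the fibrillar, type IV and other collagens ran from 0.14 to 0.48, -0.084 to 0.28 and 0.051 to 0.41. Log2 fold changes near 0 turned sign. With sample weights they were 0.049 for *Col12a1*, -0.077 for *Col18a1*, -0.080 for *Col4a2*, -0.0021 for *Col5a1*, -0.13 for *Col6a2* and -0.015 for *Col8a1*. With the replicate block they were 0.14 for *Col12a1*, -0.094 for *Col4a2* and -0.072 for *Col6a2*. *Col4a2* was -0.0041 with library size only, -0.0064 with limma on log2(CPM + 1) and -0.0064 on log2(CPM + 0.1). With each tumor left out the ranges were -0.23 to 0.068 for *Col12a1*, -0.39 to 0.30 for *Col18a1*, -0.055 to 0.34 for *Col4a1*, -0.22 to 0.22 for *Col4a2*, -0.14 to 0.10 for *Col6a1*, -0.10 to 0.22 for *Col6a2* and -0.041 to 0.28 for *Col6a3*. For log2 ratio differences they were -0.057 to 0.26 for *Col3a1*/*Col1a1*, -0.28 to 0.26 for *Col4a1*/*Col1a1* and -0.16 to -0.12 for *Col4a2*/*Col4a1*. The cause of these shifts was not tested. Deviations of same-numbered tumors correlated at 0.13, 0.087, -0.080, -0.14 and 0.29 across genes. Differently numbered tumors were not compared in this way, so these values do not decide whether the numbers pair the tumors.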
